A study of Mus musculus with 2 samples.

Results

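The cells described here are the conventional type 2 dendritic cells (cDC2) of the adult mouse lung, chosen among sorted lung-resident immune cells by measured values, a gate on raw counts of unique molecular identifiers (UMIs, each standing for 1 captured transcript). A barcode was a member if it held at least 1 UMI of 2 or more of the 6 genes Mgl2, Cd209a, Tnip3, Asgr2, Clec4b1 and Ccl17, and at least 20 UMIs of Cd74, the MHC class II invariant chain. It also had to hold no UMI of Xcr1 or Clec9a, which mark type 1 dendritic cells (cDC1), and of the T and B cell genes Cd3d, Cd3e, Cd3g and Cd79a. Barcodes with both Ccr7 and Fscn1 (mature dendritic cells), with more than 4 UMIs of the complement genes C1qa, C1qb and C1qc, or with more than 1 UMI of the alveolar macrophage genes Krt79 and Plet1 were left out. The gate selected 567 of 16932 kept barcodes, 391 in the oil library and 176 in the tamoxifen library.

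Both libraries came from adult mice that carry the same alleles, written Gli1creERT/Hhipflo/flox: a tamoxifen-inducible Cre recombinase driven by Gli1, and Hhip alleles flanked by Cre target sites. Hhip encodes a surface protein that captures Hedgehog ligands, while Gli1 marks cells that receive the Hedgehog signal, in the lung mainly mesenchymal cells and not the immune cells sequenced here. The control mice received oil and the others tamoxifen. Live cells positive for CD45 and unlabelled by a CD45 antibody given into the bloodstream were sorted, so that cells inside vessels were kept out, and 1 10x Genomics 3' v3 library was made per group. A single library per group leaves no replicate check and no test between groups: every difference below is between these 2 libraries, every interval is a 95% interval that covers counting error only, and the labels do not give the number of mice pooled. No group received tamoxifen without the Hhip alleles, so tamoxifen itself and loss of Hhip cannot be told apart.

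After filtering, 6794 barcodes were kept from oil and 10138 from tamoxifen, with a median of 6360 and 6431 UMIs. The libraries shared 41 barcode sequences, none of which was a member in both. Hhip gave 40 UMIs in 24 kept oil barcodes and 29 UMIs in 13 kept tamoxifen barcodes, too few in sorted immune cells to check the deletion. Member cells were sequenced to a similar depth in both libraries, with a median of 13572 UMIs and 2691 genes per cell in oil and 13126 UMIs and 2630 genes in tamoxifen.

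Conventional dendritic cells sample antigen in peripheral tissues and carry it to the draining lymph node, where they present it to T cells. The type 2 lineage depends on the transcription factor IRF4, presents mainly on MHC class II to CD4 T cells, and in the lung is known for supporting type 2 and type 17 responses through lectin receptors, IL-23, IL-6 and chemokines such as CCL17. The type 1 lineage depends on IRF8, presents to CD8 T cells and is the main dendritic source of IL-12 in many settings.

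Members were selected on the gate genes, so the levels of these genes are a description. Mgl2, a galactose-binding lectin, was seen in 367 of 391 oil cells and 150 of 176 tamoxifen cells, with a median of 25 and 16 UMIs per cell. Tnip3, an inhibitor of NF-kB signalling, was seen in 346 and 149 cells, and Ccl17, a ligand of the T cell receptor Ccr4, in 320 and 145. Clec4b1 was seen in 299 and 117 cells, Cd209a in 108 and 31, and Asgr2 in 52 and 26. On the edge of the gate, 57 oil and 37 tamoxifen members held exactly 2 of the 6 genes, while 42 oil and 55 tamoxifen barcodes met every other condition with exactly 1 of them. Members with exactly 2 had a median of 291 and 265 UMIs of Cd74, against 56.5 and 78 in the barcodes with exactly 1. The complement condition alone removed 671 oil and 493 tamoxifen barcodes, since Mgl2, Tnip3 and Ccl17 were also present in C1q macrophages.

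As a list, cDC2 genes outside the gate set the members apart from cDC1 but not from C1q macrophages. Other dendritic and macrophage genes differed between the members and C1q macrophages. Irf4, the lineage's transcription factor, stood at 62.9 CPM (UMIs of the gene per 1e6 UMIs of the members) in oil members and 65.0 in tamoxifen members, against 5.86 and 4.95 in cDC1. Itgam (CD11b), an integrin chain of cDC2 and macrophages, gave 137 and 104 CPM against 8.89 and 3.44 in cDC1, and Sirpa, an inhibitory receptor for CD47, gave 95.7 and 103 CPM against 9.09 and 3.66. The 10 cDC2 genes outside the gate summed to 766 and 859 CPM in members and 218 and 278 in cDC1. In C1q macrophages the sum was higher, at 973 and 1066 CPM, with Sirpa at 189 and 210 and Itgam at 129 and 124. Klf4, of the same list, was higher in cDC1 (148.5 and 221.6 CPM) than in members (127 and 159). Flt3, the dendritic growth factor receptor, and Zbtb46, a transcription factor of conventional dendritic cells, were present at 72.0 and 20.9 CPM in oil members, against 18.97 and 3.82 CPM in C1q macrophages. The macrophage genes Mertk and Ms4a7 were near background, at 3.79 and 3.60 CPM in oil members and 3.95 and 6.15 in tamoxifen members.

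**Figure D1:**
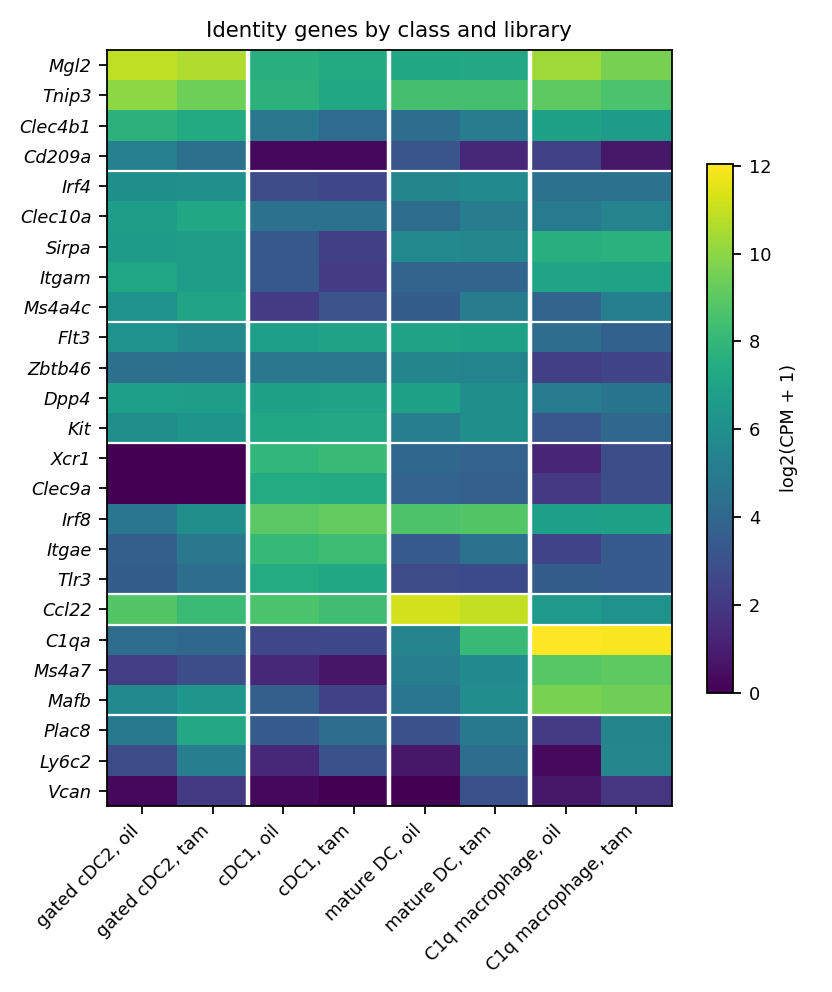
Level of 25 identity genes, as log2(CPM + 1) by colour, in gated cDC2, cDC1, mature dendritic cells and C1q macrophages of the oil and tamoxifen libraries. White lines separate gate genes, other cDC2 genes, genes of all conventional dendritic cells, cDC1 genes, Ccl22, macrophage genes and monocyte genes; Xcr1 and Clec9a are at 0 in the gated cells because the gate requires it.

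Markers of other cell types were low but not all at the same level in the 2 libraries. All 6 T cell markers summed to 5.88 CPM in oil members and 9.22 in tamoxifen members, with Cd3d, Cd3e and Cd3g at 0 by the gate. The 5 fibroblast markers summed to 77.0 and 74.7 CPM (75.5 and 32.1 without Dcn, whose tamoxifen UMIs came almost all from 1 cell), the 5 epithelial markers to 172 and 182, and the 6 neutrophil markers to 7.58 and 19.8. Monocyte markers (8 genes, among them Ccr2, which cDC2 also express) summed to 484 and 500 CPM, interstitial macrophage markers (9 genes) to 266 and 308, and cDC1 markers (7 of 9 detected) to 362 and 448. Alveolar macrophage markers (10 genes) summed to 264 CPM in oil and 152 in tamoxifen, and B cell markers to 380 CPM in oil, where 1663 of 1994 Ighm UMIs came from 1 cell, and 71.2 in tamoxifen. Chil3, which is in both the monocyte and the alveolar macrophage list, alone stood at 189 CPM in oil and 34.7 in tamoxifen members. The other genes of each of these lists together were higher in tamoxifen than in oil members. The part of all these markers in the differences below was not tested, except where clusters or single cells are left out.

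Gated cDC2 made up a smaller share of the tamoxifen library than of the oil library. They were 391 of 6794 kept oil cells, 5.76% (5.21 to 6.34, exact Clopper-Pearson interval), and 176 of 10138 kept tamoxifen cells, 1.74% (1.49 to 2.01). The share was lower by 1.73 on the log2 scale (log2 ratio -1.73, -1.98 to -1.48). Part of the denominator was alveolar macrophages, which were 5.05% of oil and 17.6% of tamoxifen cells. The share was also taken without every barcode past the Krt79 and Plet1 limit of that class, including those with T or B cell genes. That wider removal left 6379 oil and 7773 tamoxifen cells and gave a log2 ratio of -1.44 (-1.69 to -1.18). The other lung dendritic classes were also less frequent, with log2 ratios of -0.55 for cDC1 (339 and 345 cells) and -0.68 for mature dendritic cells (99 and 92 cells). Among the cells of the 3 dendritic classes alone, cDC2 were 47.2% in oil (43.7 to 50.6) and 28.7% in tamoxifen (25.2 to 32.5), a log2 ratio of -0.72 (-0.92 to -0.51). By their gates these 3 classes leave out alveolar macrophages, T cells and B cells, but the mature dendritic class has no limit on C1q genes. Its interstitial macrophage markers summed to 175 CPM in oil and 1158 in tamoxifen. The part of such barcodes in the ratio was not tested.

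Both sexes were present in each library, as read from Xist and Y-linked transcripts, and the lower share was seen in cells of each. In oil, 184 of 3714 female cells were cDC2 (4.95%), and in tamoxifen 86 of 6156 (1.40%). Among male cells the counts were 149 of 1413 (10.5%) and 58 of 1679 (3.45%). The log2 ratios by sex were -1.83 (-2.19 to -1.46) and -1.61 (-2.04 to -1.18). Among cells of the 3 dendritic classes alone, the cDC2 log2 ratio was -0.38 (-0.67 to -0.08) in female cells. In male cells it was -1.18 (-1.55 to -0.82), a contrast that was not tested. The cDC1 share of kept cells did not go the same way in both sexes: it was lower in female cells (5.197% and 1.998%) and higher in male cells (8.28% and 10.4%). Mgl2, Tnip3, Clec4b1 and Cd209a were seen in a smaller part of tamoxifen than of oil members, Ccl17 and Asgr2 in a slightly larger part (81.8% and 82.4%, 13.3% and 14.8%). The share was therefore also taken with no gate gene required and all other conditions kept, which gave a log2 ratio of -1.26, a setting chosen after the data were seen.

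**Figure D2:**
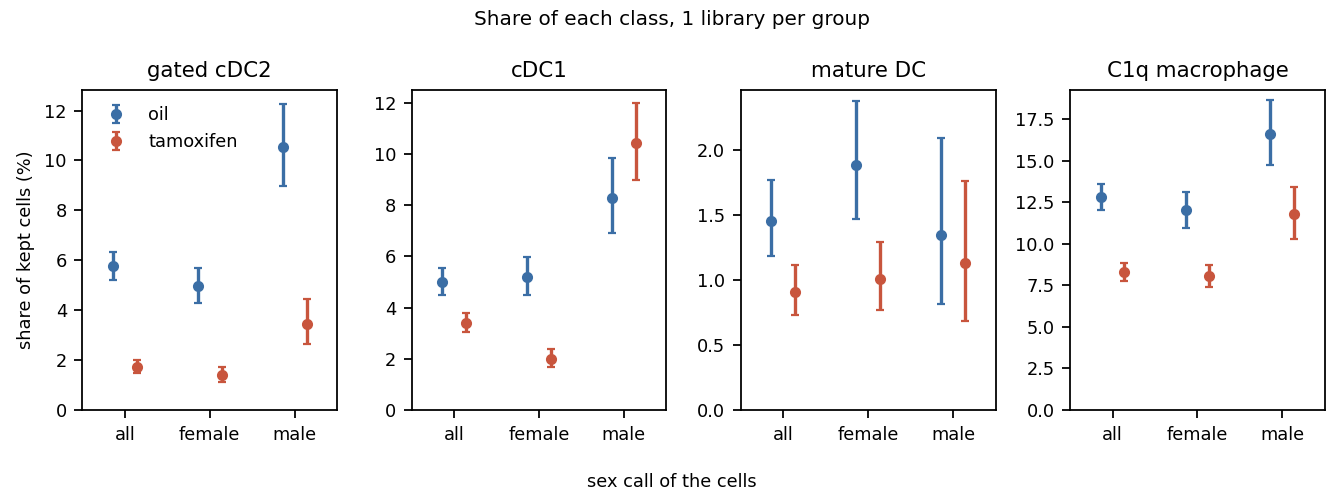
Share of kept cells (%) in gated cDC2, cDC1, mature dendritic cells and C1q macrophages, for all, female and male cells of the oil (blue) and tamoxifen (red) libraries. Points are the share in the single library of each group and bars are exact 95% binomial intervals; gated cDC2 are at 5.76% and 1.74% overall and lower with tamoxifen in both sexes.

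The gated cells fell into 6 clusters, described by number because clusters 4 and 5 had more leading genes of another class than of cDC2. Cluster 1 (133 oil and 63 tamoxifen cells) was led by Ms4a4c, Il1r2, a decoy receptor for IL-1, and Ccl22, a Ccr4 ligand. Cluster 2 (117 and 34 cells) was led by the immediate early genes Fos and Egr1 and also by Ccl2. Cluster 3 (91 and 27 cells) was led by the metallothionein Mt2, Sdc4, Ccl9 and Il1rn, the IL-1 receptor antagonist. Cluster 6 (20 and 11 cells) was led by genes of dividing cells such as Top2a and Birc5, and its median depth was 22893 UMIs.

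Cluster 4 (16 and 21 cells) was led by Irf8, Cd207 (langerin), Itgae (CD103) and Tlr3, of which Irf8, Itgae and Tlr3 are cDC1 markers, although Xcr1 and Clec9a were 0 by the gate. Its summed cDC1 markers stood at 1587 CPM against 324 CPM in the other members. Its mature dendritic cell markers, with Ccl22 also among its leading genes, summed to 2403 CPM against 601. Cluster 5 (14 and 20 cells) was led by Fn1, Ccl6, Ctsd and Lyz2 and carried Apoe, a macrophage marker. Its monocyte markers summed to 3274 CPM against 318 CPM in the other members, and its 6 cDC2 markers to 662 CPM against 3502. Its alveolar macrophage markers summed to 2492 CPM against 91.2, and its interstitial macrophage markers to 1716 against 191. Clusters 4 and 5 together were few, but they were a larger part of the tamoxifen cells. Cluster 4 was 4.09% (2.36 to 6.56) of oil and 11.9% (7.54 to 17.7) of tamoxifen members, and cluster 5 was 3.58% (1.97 to 5.93) and 11.4% (7.08 to 17.0). Clusters 2 and 3 were smaller parts with tamoxifen, at 29.9% and 19.3% for cluster 2 and 23.3% and 15.3% for cluster 3. With clusters 4 and 5 left out the share of all kept cells had a log2 ratio of -1.996, and each gene ratio over all members below that left its interval without them is given both ways, as an alternative chosen after the data were seen.

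**Figure D3:**
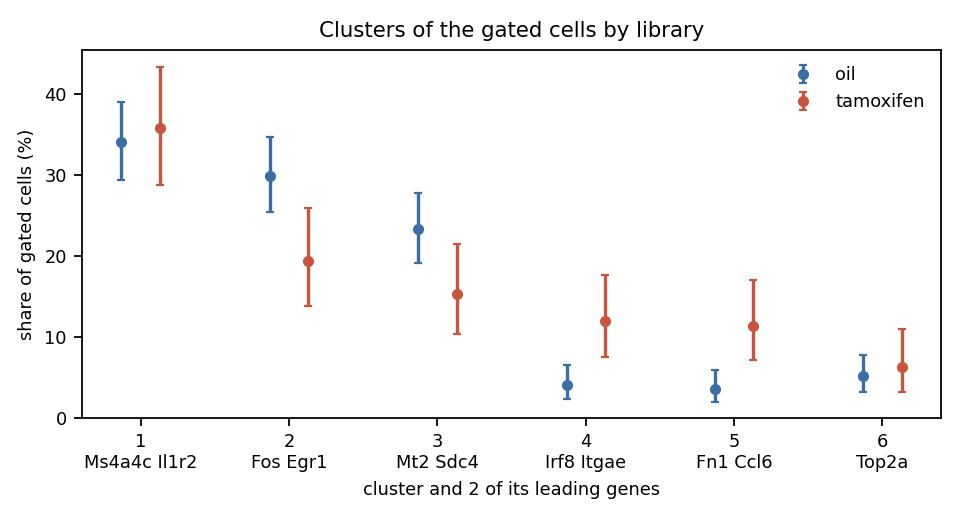
Share of gated cells (%) in each of the 6 clusters, named by number and by leading genes, in the oil (blue) and tamoxifen (red) libraries with exact 95% binomial intervals. Clusters 4 and 5 hold 4.09% and 3.58% of oil cells and 11.9% and 11.4% of tamoxifen cells, while clusters 2 and 3 hold larger parts in oil.

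Most transcripts stood at similar levels in the gated cells of both libraries. UMIs were summed over the members of each library, 5274898 in oil and 2277018 in tamoxifen, and 6351 genes had at least 60 UMIs over both libraries and a mean of at least 10 CPM. Of these, 60 (0.945%) were at least 2-fold higher with tamoxifen and 42 (0.661%) at least 2-fold lower, and the median log2 ratio was 0.04. At 1.5-fold, 271 genes (4.27%) were higher and 249 (3.92%) lower. Without clusters 4 and 5 the 2-fold counts were 40 higher and 55 lower. In 46 of the 60 and 38 of the 42 the ratio was still past 2-fold without the cell holding the most UMIs of that gene in each library. Gene lists of dendritic cell functions are given by how many of their measured members, those with at least 60 UMIs, were past 1.5-fold, to be read against these shares.

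Transcription factors of dendritic cell development were mostly level: 2 of 31 measured members were past 1.5-fold higher and 1 lower, with a median log2 ratio of 0.02. Irf4 gave 332 and 148 UMIs, a log2 ratio of 0.05 (-0.24 to 0.33). Klf4, needed by the cDC2 that support type 2 responses, was at 127 and 159 CPM (0.33, 0.14 to 0.51), with a ratio of 0.13 without clusters 4 and 5. Irf8 was at 26.0 and 61.9 CPM (1.25, 0.90 to 1.60), but 84 of the 141 tamoxifen UMIs lay in cluster 4, and without clusters 4 and 5 its log2 ratio was 0.59. Cebpb, a factor of monocytes and macrophages, went from 0.60 to 0.28 in the same way. At the lower end of the list were Egr2 (-0.69, -1.05 to -0.34) and Ikzf1 (-0.47, -0.82 to -0.12).

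Genes of antigen presentation on MHC class II did not go 1 way. Of 13 measured members 2 were past 1.5-fold higher and 2 lower, with a median of -0.19. The 3 classical class II chains differed from each other: H2-Aa was at 13551 and 11883 CPM (-0.19, -0.21 to -0.17), H2-Ab1 at 14241 and 12952 CPM (-0.14, -0.16 to -0.12), and H2-Eb1 at 4807 and 7298 CPM (0.60, 0.57 to 0.63). Without clusters 4 and 5 H2-Aa was at -0.15 and H2-Ab1 at -0.08. H2-Eb1, on chromosome 17, encodes the beta chain of I-E, and it was also higher in cDC1 (2949 and 6709 CPM), mature dendritic cells, C1q macrophages, T cells and B cells of the tamoxifen library, though not in its alveolar macrophages (log2 ratio -0.69). In gated cells the difference lay mainly in male cells, where the log2 ratio was 0.91 (0.87 to 0.95), against 0.11 (0.06 to 0.17) in female cells. The contrast between the sexes was not tested, and the labels do not say whether the pooled mice shared a strain background. The accessory genes at the ends of the list were Lgmn, a lysosomal protease (0.61, 0.32 to 0.90, but 0.37 without clusters 4 and 5), March1, which marks class II for degradation (-0.69, -1.03 to -0.37), and H2-Ob, a brake on peptide loading (-0.63, -0.93 to -0.34).

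For MHC class I and its loading, 1 of 18 members was past 1.5-fold higher and none lower, with a median of 0.10. Tap1, a subunit of the peptide transporter, gave 170 UMIs in oil and 119 in tamoxifen (0.70, 0.35 to 1.04), and Psmb9, an immunoproteasome subunit, 0.45 (0.25 to 0.64). The classical chain H2-D1 was at 2779 and 2119 CPM (-0.39, -0.44 to -0.34) and H2-Q4 was at 78.9 and 62.8 CPM (-0.33, -0.61 to -0.05).

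Costimulation was even between the libraries, with 0 of 16 measured members past 1.5-fold in either direction and a median of -0.01. The B7 molecules Cd80 and Cd86 gave 124 and 120 CPM, and 133 and 148 CPM, with log2 ratios of -0.05 (-0.26 to 0.16) and 0.16 (-0.04 to 0.34). Cd274, the ligand of PD-1, was at 27.5 and 36.9 CPM (0.42, 0.02 to 0.82) and Havcr2 (TIM-3) at 86.8 and 108 (0.31, 0.08 to 0.54). Icosl (-0.54, -0.92 to -0.17) and Tnfsf9 (4-1BB ligand; -0.51, -0.65 to -0.36) were lowest. In the maturation list 1 of 17 was past 1.5-fold higher and 1 lower, with a median of 0.11. Ccr7, the lymph node homing receptor, was at 73.8 and 180 CPM (1.28, 1.08 to 1.49), followed by Il4i1, an amino acid oxidase (0.43). Ccl22 was at 457 and 293 CPM (-0.64, -0.76 to -0.51, and -0.46 without clusters 4 and 5) and Cd83 at 897 and 782 CPM (-0.20). The gate removes cells with both Ccr7 and Fscn1, so the Ccr7 level describes the cells the gate let through.

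Among cytokines 2 of 15 measured members were past 1.5-fold higher and 4 lower, with a median of -0.08. Il1b was the most abundant, with 4044 CPM in the oil and 4579 in the tamoxifen members (0.18, 0.15 to 0.21). Il12b, the p40 subunit shared by IL-12 and IL-23, gave 179 UMIs in oil and 399 in tamoxifen members (2.37, 2.11 to 2.63). Those UMIs lay in only 13 and 12 cells, and 223 of the 399 were in 1 tamoxifen cell. Without the top cell of each library the log2 ratio was 1.61, and without clusters 4 and 5 it was 2.78. It was 2.64 (2.35 to 2.94) in female cells and 0.41 (-0.39 to 1.17) in male cells, a contrast that was not tested. Cluster 4 held 124 of the oil and 248 of the tamoxifen UMIs, and cluster 1 held 51 and 136. In cDC1 Il12b was level, at 108 and 105 CPM, and in mature dendritic cells it was at 1118 and 1237 CPM.

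Il23a, the other subunit of IL-23, was in turn lower with tamoxifen. It gave 112 UMIs in 23 oil cells and 18 UMIs in 6 tamoxifen cells, 21.2 and 7.91 CPM (-1.43, -2.23 to -0.70), and 91 of the oil UMIs were in cluster 1. In cluster 4, where most Il12b lay, Il23a gave 1 UMI in oil and 7 in tamoxifen, and in cluster 6 it gave 2 and 5. By sex its log2 ratio was -1.34 (-2.48 to -0.36) in female cells and -0.95 (-2.25 to 0.15) in male cells. Il6 was at 31.3 and 17.1 CPM (-0.87, -1.41 to -0.36), although without clusters 4 and 5 the log2 ratio was -0.20. Il1a was at 53.5 and 32.1 CPM (-0.74, -1.13 to -0.36; -1.18 without clusters 4 and 5), and Il1rn at 112 and 173 CPM (0.63, 0.44 to 0.82), or 0.41 without clusters 4 and 5.

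Among the 24 gene lists, the lowest ratio of a measured member was that of the chemokine Ccl7. Of 16 measured members 4 were past 1.5-fold higher and 5 lower, with a median of -0.19. Ccl2, on chromosome 11 from 82035571 to 82037453 (GRCm38), is the main ligand of Ccr2 and attracts monocytes. It gave 1414 UMIs in oil and 149 in tamoxifen members, 268 and 65.4 CPM (-2.03, -2.29 to -1.79). The neighbouring gene Ccl7, from 82045712 to 82047525, encodes a related Ccr2 ligand and gave 451 and 42 UMIs, 85.5 and 18.45 CPM (-2.21, -2.71 to -1.75). The Ccl7 UMIs lay in only 37 oil and 7 tamoxifen cells, with 98 in 1 oil cell. Its log2 ratio was -4.68 in cluster 1, -0.47 (-1.02 to 0.05) in cluster 2 and -4.65 in cluster 3. Cluster 2 held 37 of the 42 tamoxifen UMIs. In C1q macrophages the Ccl7 ratio was 0.07. When each cell was thinned to 3000 UMIs, Ccl2 was seen in 28.5% of oil and 10.98% of tamoxifen members, against 1.40% and 0.91% of T cells at the same depth. Before thinning it was seen in 152 of 391 and 36 of 176 members.

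The lower Ccl2 was seen in female cells (543 and 40 UMIs, -2.65, -3.15 to -2.18) and in male cells (631 and 54 UMIs, -2.01, -2.44 to -1.61). Clusters 1, 2 and 3 each showed it, with log2 ratios of -2.78, -1.72 and -0.95, and leaving out clusters 4 and 5 gave -1.995. C1q macrophages, the other main source, were at 521 and 441 CPM of Ccl2 (-0.24), and cDC1 at 50.3 and 51.6 CPM (0.04). In mature dendritic cells Ccl2 was scarce, with 3 UMIs in oil and 37 in tamoxifen. Whether the ratio in gated cells differs from that in other classes was not tested.

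The inflammatory chemokines Ccl4 and Ccl3 were also lower, at 834 and 465 CPM (-0.84, -0.94 to -0.75) and 124 and 73.8 CPM (-0.75, -1.01 to -0.51). For Ccl4 this came from female cells, with a log2 ratio of -1.53 (-1.71 to -1.37), against 0.12 (-0.01 to 0.25) in male cells; the difference between the sexes was not tested. Nor was Ccl4 lower in every cluster: in cluster 1 it was higher with tamoxifen (0.76, 0.59 to 0.93), against -0.37 in cluster 2, -1.53 in cluster 3 and -0.88, -4.16 and -2.58 in clusters 4, 5 and 6. Without clusters 4 and 5 its log2 ratio was -0.64. On the higher side were Ccl5, at 58.0 and 116 CPM (0.999, 0.76 to 1.24, and 1.26 without clusters 4 and 5), and the neutrophil attractants Cxcl1 (0.78, 0.31 to 1.25) and Cxcl3 (0.77, 0.27 to 1.26), the last from 83 and 61 UMIs in 10 and 9 cells. The Cxcl3 ratio was 2.10 without clusters 4 and 5 and 0.05 without the top cells. Pf4, a macrophage and platelet gene, had a log2 ratio of 2.18 (45 and 88 UMIs) that was -1.03 with clusters 4 and 5 left out.

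**Figure D4:**
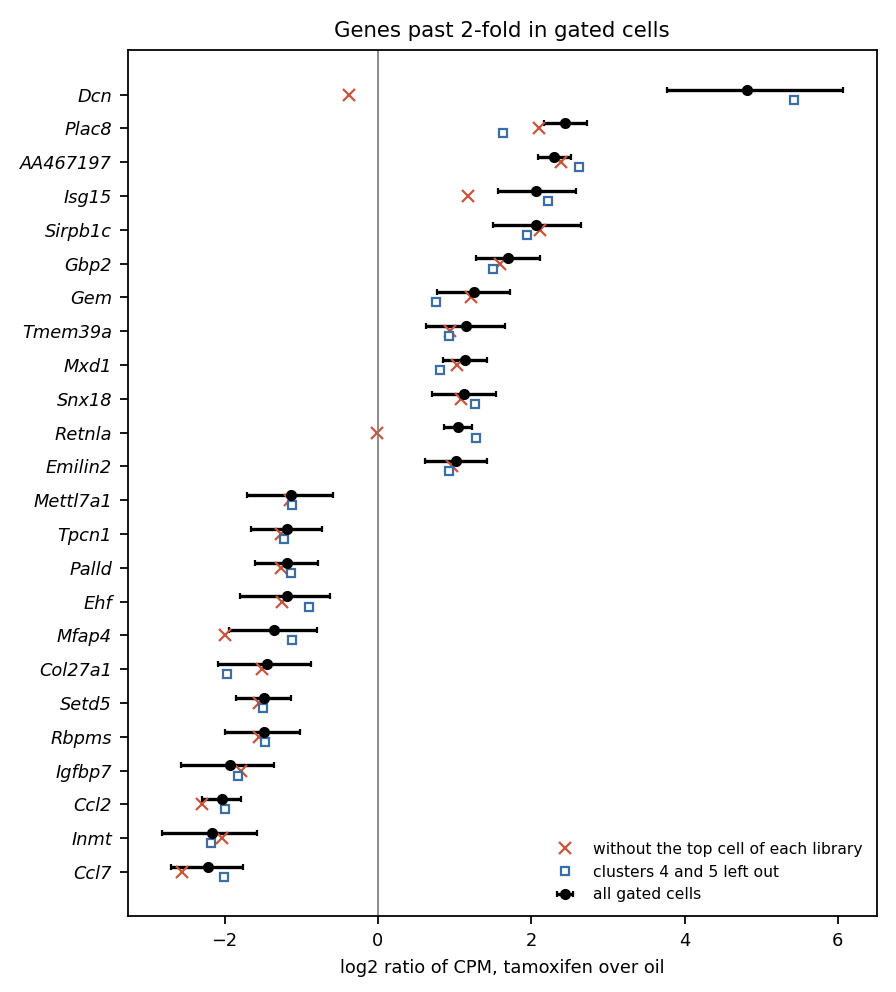
Log2 ratio of CPM, tamoxifen over oil, for 24 genes named by the size rule in gated cells. Black points with 95% Poisson intervals are all members. Crosses leave out the cell with the most UMIs of the gene in each library, and squares leave out clusters 4 and 5. Dcn and Retnla lose their difference without the top cells. Ccl2 is at -2.30 without the top cells and -1.995 without clusters 4 and 5, and Ccl7 at -2.55 and -2.01.

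Genes induced by interferon-gamma had a median above 0 over all members, but not in every setting. Of 17 measured, 5 were past 1.5-fold higher and none lower, with a median of 0.28. Gbp2, a GTPase that attacks pathogen-containing vacuoles, gave 86 and 120 UMIs (1.69, 1.28 to 2.11). In cDC1 it went the other way (103 and 23 UMIs, -2.07), and it was at -0.42 in mature dendritic cells and 0.45 in C1q macrophages. The immunity-related GTPases Ifi47 (32 and 33 UMIs; 1.26, 0.51 to 2.005) and Irgm1 (35 and 30 UMIs; 0.99, 0.24 to 1.74) and the Fc receptor Fcgr1 (88 and 62 UMIs; 0.71, 0.21 to 1.19) were also among the 5.

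Irf1, an early target of the same signal, was lower, at 97.6 and 69.4 CPM (-0.49, -0.76 to -0.23), as was Ciita, the master regulator of MHC class II (149 and 113 CPM; -0.40, -0.61 to -0.19). The interferon-induced chemokines Cxcl9 and Cxcl10 were at 65.6 and 53.6 CPM (-0.29, -0.60 to 0.01) and 122 and 103 CPM (-0.25, -0.47 to -0.03), and Cxcl9 was at -1.28 without clusters 4 and 5. With clusters 4 and 5 left out, 3 of 14 measured members were past 1.5-fold higher and 2 lower and the median was -0.18, opposite in sign. When the gate was applied to cells thinned to 3000 UMIs, which took in 546 oil and 287 tamoxifen cells, the median was -0.21, and Gbp2 was under 2-fold at 0.59. The median was 0.60 in female cells (7 of 14 higher and none lower) and -0.17 in male cells (3 of 10 higher and 2 lower).

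In the type I interferon list, 3 of 11 measured members were past 1.5-fold higher and none lower, with a median of 0.26 and of 0.31 without clusters 4 and 5. Isg15, a ubiquitin-like modifier, gave 53 UMIs in oil and 96 in tamoxifen members (2.07, 1.57 to 2.58), of which 50 lay in 1 tamoxifen cell. Without the top cells its log2 ratio was 1.18. In cDC1 its ratio was -0.35, against 2.07 in mature dendritic cells and 1.87 in C1q macrophages. Zbp1, a sensor of left-handed nucleic acids, gave 39 and 44 UMIs (1.39, 0.73 to 2.05), and Ifih1 (MDA5), a sensor of double-stranded RNA, 55 and 39 UMIs (0.72, 0.09 to 1.33). Stat2 (-0.32, -0.9955 to 0.32) and Ifi209 (-0.26, -0.87 to 0.32) were at the lower end of this list.

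Interferon-activated factors act through a short element with repeated GAAA letters, and some of these promoters hold matches to it. The 100 bases before the start of each of 3 genes that were at least 1.5-fold higher are given from RefSeq (GRCm38.p6), 5' to 3' on the gene's strand, with matches to GAAANNGAAA on either strand in capitals, overlapping matches merged.
Isg15, chr4:156200819-156200918, minus strand: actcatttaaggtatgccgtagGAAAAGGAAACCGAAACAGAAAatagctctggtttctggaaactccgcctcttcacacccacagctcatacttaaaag
Gbp2, chr3:142620563-142620662, plus strand: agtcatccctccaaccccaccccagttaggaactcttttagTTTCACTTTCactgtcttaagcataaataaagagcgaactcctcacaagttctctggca
Irgm1, chr11:48871421-48871520, minus strand: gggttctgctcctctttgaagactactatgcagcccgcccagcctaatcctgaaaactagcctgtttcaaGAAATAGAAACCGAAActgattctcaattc
Isg15 held 3 overlapping matches, Gbp2 held 1 on the opposite strand and Irgm1 held 2. In the 250 bases before the start, the motif occurred in 936 of 27025 genes (3.46%) and in 13 of the 23 measured members of both interferon lists that the table covers (56.5%). It was present in 3 of the 6 covered members that were at least 1.5-fold higher and in 10 of the 17 that were not, so the letters alone did not separate them. A match is a description of the sequence and not a measured binding site.

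**Figure D5:**
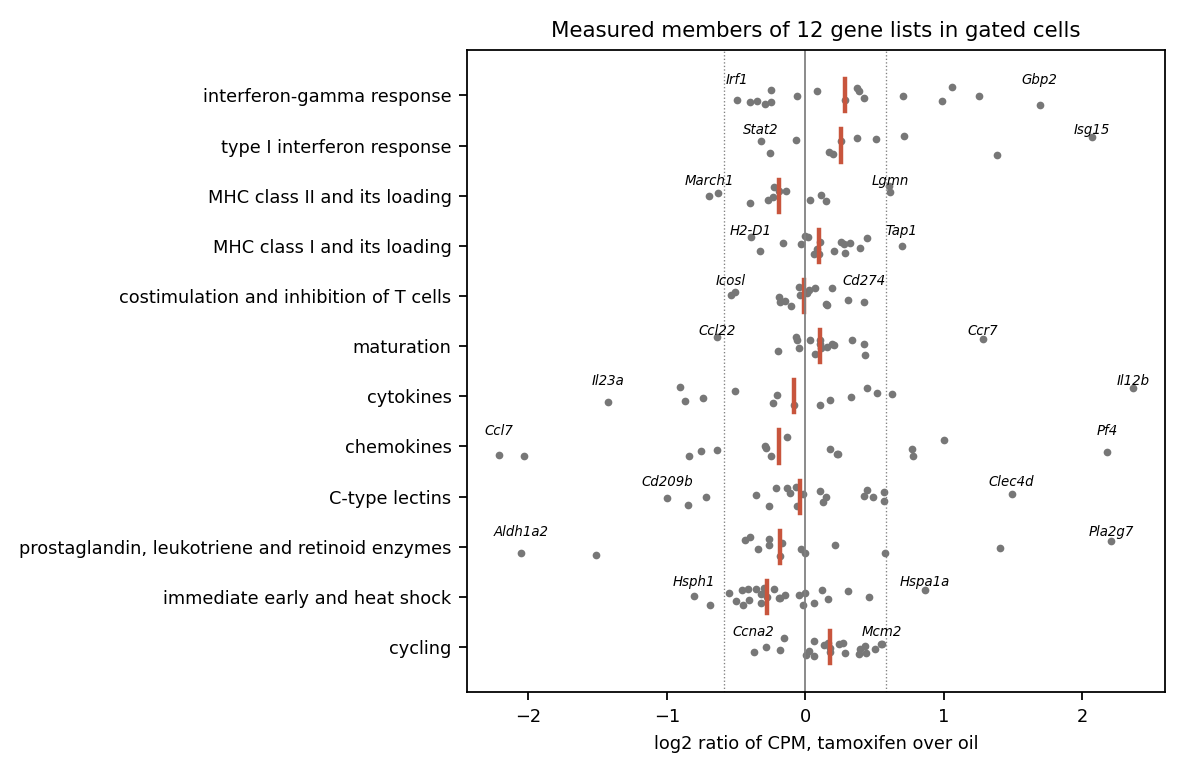
Log2 ratio of CPM, tamoxifen over oil, for each measured member (grey points) of 12 gene lists in gated cells, with the list's median in red, the lowest and highest member named, and dotted lines at 1.5-fold. Chemokines and cytokines spread widely in both directions, from Ccl7 at -2.21 to Il12b at 2.37, while costimulatory genes stay within 1.5-fold.

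Lectins and uptake receptors, which define much of cDC2 identity, were split. Of 20 measured C-type lectins 1 was past 1.5-fold higher and 3 lower, with a median of -0.04. The 3 lower ones were Cd209 family members, which bind mannose-rich glycans: Cd209a (37.2 and 20.6 CPM; -0.85, -1.34 to -0.38), which the gate used, Cd209b (97 and 21 UMIs; -0.9956, -1.75 to -0.30) and Cd209c (194 and 51 UMIs; -0.72, -1.19 to -0.26). Without clusters 4 and 5 their log2 ratios were -0.63, -0.77 and -0.49. Clec4d gave 33 and 40 UMIs (1.49, 0.79 to 2.20) and Clec4a3 187 and 120 UMIs (0.57, 0.23 to 0.91). Clec10a, the paralogue of Mgl2, was at 108 and 146 CPM (0.44, 0.24 to 0.64), while Mgl2 itself was at 1885 and 1570 CPM (-0.26, and -0.12 without clusters 4 and 5). Near-identical copies in these families can share reads, so single members are uncertain to that extent.

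Genes that divide cDC2 into subsets differed from each other. Of 13 measured, 2 were past 1.5-fold higher and 2 lower, with a median of -0.04. Cd163, a haemoglobin scavenger receptor that marks inflammatory or monocyte-like cDC2, was at 25.6 and 10.1 CPM (-1.34, -2.05 to -0.70). Ly6c2 gave 32 and 78 UMIs (2.497, 1.89 to 3.14), 51 of the 78 in cluster 1 and 26 in cluster 5, and B cells held it at 366 and 242 CPM. Lyz2 (lysozyme) was at 1290 and 2196 CPM (0.77, 0.72 to 0.82), but its log2 ratio was 0.17 with clusters 4 and 5 left out. Ms4a4c, which led cluster 1, was at 70.5 and 131 CPM (0.89, 0.67 to 1.12), and the difference lay in male cells (97 and 148 UMIs; 2.15, 1.77 to 2.53) and not in female cells (224 and 107 UMIs; 0.05, -0.29 to 0.39), a contrast between sexes that was not tested.

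Retinoid genes were among the lowest in the list of prostaglandin, leukotriene and retinoid enzymes, where 2 of 15 measured members were past 1.5-fold higher and 2 lower, with a median of -0.18. Aldh1a2, which makes retinoic acid from retinal and in dendritic cells supports gut-homing and regulatory T cells, gave 125 UMIs in 69 oil cells and 13 UMIs in 11 tamoxifen cells (-2.05, -3.00 to -1.23). It was lower in female cells (49 and 6 UMIs), in male cells (66 and 4 UMIs) and without clusters 4 and 5 (-2.04). It was also lower in cDC1 (41 and 5 UMIs) and C1q macrophages (80 and 17 UMIs), with a log2 ratio of -0.54 in mature dendritic cells, where it was most abundant at 333 and 230 CPM. Rarg, a retinoic acid receptor, gave 112 and 17 UMIs (-1.51, -2.34 to -0.76). The higher members were Pla2g7, a phospholipase (20 and 40 UMIs; 2.21, 1.40 to 3.06, and 0.95 without clusters 4 and 5), and Hpgds, a prostaglandin D synthase (28 and 32 UMIs; 1.41, 0.63 to 2.19).

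Beyond the lists, the rule for named genes took 13 genes at least 2-fold higher and 12 at least 2-fold lower with a mean of at least 20 CPM, taken in order of the bound closest to a ratio of 1. AA467197, also called Nmes1, a gene of mitochondria on chromosome 2 from 122636986 to 122641191, was seen in the most tamoxifen cells among the higher ones. In oil, Mxd1 was seen in more cells (98). It gave 268 UMIs in 46 oil cells and 569 UMIs in 79 tamoxifen cells, 50.8 and 250 CPM (2.30, 2.09 to 2.51). After thinning it was seen in 6.45% (4.18 to 9.45) of oil members and 29.5% (22.8 to 36.9) of tamoxifen members, against 4.52% and 3.18% of T cells. Its level was higher in female cells (1.16, 0.85 to 1.47) and in male cells (3.55, 3.16 to 3.97), a contrast that was not tested, and it was 2.63 without clusters 4 and 5. The same gene was higher in cDC1 (20 and 84.8 CPM) and C1q macrophages (18.1 and 113 CPM) and level in mature dendritic cells (178 and 200 CPM) and alveolar macrophages (56.8 and 59.7 CPM).

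Of the other higher genes, Plac8, a gene of monocytes and B cells, gave 150 and 353 UMIs (2.45, 2.17 to 2.73). These came from 10 and 19 cells, and 232 of the tamoxifen UMIs were in cluster 5, so that the log2 ratio was 1.64 without clusters 4 and 5. Sirpb1c, a member of a family of near-identical activating receptors, gave 42 and 76 UMIs (2.07, 1.505 to 2.65). Cluster 5 held 21 of the oil and 46 of the tamoxifen UMIs. Without clusters 4 and 5 the Sirpb1c log2 ratio was 1.95, from 21 and 30 UMIs. Mxd1, a MYC antagonist, was at 38.7 and 85.2 CPM (1.14), Gem, a small GTPase, at 14.2 and 33.8 CPM (1.25), and both had lower ratios without clusters 4 and 5 (0.82 and 0.76). Snx18, a sorting nexin, Tmem39a and Emilin2, a matrix glycoprotein, had log2 ratios of 1.13, 1.15 and 1.02. Dcn and Retnla passed 2-fold through single cells: 96 of 97 tamoxifen UMIs of Dcn, a fibroblast proteoglycan, were in 1 cell, and 510 of 517 oil and 459 of 462 tamoxifen UMIs of Retnla were in 1 cell each (log2 ratio 1.05, and 1.27 without clusters 4 and 5).

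Among the lower genes, Rbpms, an RNA-binding protein, gave 273 UMIs in 170 oil cells and 42 UMIs in 36 tamoxifen cells (-1.49, -1.99 to -1.02), and after thinning it was seen in 15.3% and 2.31% of members. It was lower in female cells (-1.11) and male cells (-1.87) and in clusters 1, 2 and 3 (-1.42, -1.51 and -1.12). It was also lower in all 6 comparison classes, from -1.44 in cDC1 to -0.14 in alveolar macrophages. Setd5, a chromatin regulator, gave 499 and 77 UMIs (-1.48, -1.85 to -1.14), and its log2 ratio lay between -1.74 and -0.88 in all 6 comparison classes. Col27a1, a fibrillar collagen gene (177 and 28 UMIs; -1.45), Palld, an actin organiser (316 and 60; -1.19), Tpcn1, an endolysosomal cation channel (257 and 49; -1.18), Ehf, an ETS factor (164 and 31; -1.19), and Mettl7a1 (167 and 33; -1.13) each came from 91 or more oil cells. Ehf was lower in all 6 comparison classes too (-1.91 to -0.48), in some of them on few UMIs. In cDC1, mature dendritic cells and both macrophage classes, Tpcn1 (-1.32 to -0.76) and Col27a1 (-1.575 to -0.52) were lower. Tpcn1 was not lower in B cells (0.13), nor Col27a1 in T cells (0.19). Whether the ratios in gated cells differ from those in other classes was not tested. Inmt, Igfbp7 and Mfap4, genes of lung stroma, were also lower (-2.17, -1.93 and -1.35). They came from 34, 12 and 9 oil cells, with up to 143 UMIs in 1 cell, and Igfbp7 and Mfap4 had ratios above 0 (0.82 and 0.15) when the gate was applied to cells thinned to 3000 UMIs. Inmt was lower in all 6 comparison classes as well (-2.06 to -0.51). It is itself 1 of the 5 fibroblast markers, whose sum without Dcn was 75.5 CPM in oil and 32.1 in tamoxifen members.

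Immediate early and heat shock genes, which respond to tissue dissociation as well as to signals in the animal, had 1 of 27 members past 1.5-fold higher and 2 lower, with a median of -0.28. Fos was at 1059 and 906 CPM (-0.23) and Jun at 483 and 341 CPM (-0.50, -0.62 to -0.39). The chaperone Hsph1 was at 249 and 143 CPM (-0.80, -0.98 to -0.63), and it was lower in all 6 comparison classes as well. Egr2 was at 59.5 and 36.9 CPM (-0.69). Hspa1a was at 87.0 and 159 CPM (0.87, 0.66 to 1.07, and 0.57 without clusters 4 and 5) and Hspa1b at 83.8 and 115 CPM (0.46, 0.23 to 0.68). In the list of NF-kB feedback genes 0 of 16 were past 1.5-fold higher and 1 lower, which was the gate gene Tnip3 (1023 and 670 CPM; -0.61, -0.69 to -0.53, and -0.48 without clusters 4 and 5).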

How the data were processed

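The authors deposited gene-by-barcode matrices of UMI counts, made with Cell Ranger 5.0.1 on GRCm38, per the submitters' processing notes. The files hold raw counts for 31053 genes. Barcodes with at least 300 genes and under 10% mitochondrial UMIs were kept, without doublet removal (doublet scores were an alternative), and the gate was applied to raw UMIs in Python 3.11.15 with scanpy 1.11.5 for clustering (2000 variable genes without gate genes, 20 components, Leiden resolution 0.5). UMIs were summed per library and divided by the members' total (CPM), with exact Poisson intervals for ratios. The calculation was checked on simulated counts. Named genes were those with 60 UMIs over both libraries, a mean of 20 CPM and a 2-fold ratio, up to 14 each way. Receptor segments, mitochondrial, ribosomal, haemoglobin, sex-linked, unnamed and gate genes were left out, as were genes whose CPM was under 1/5 of that in another class (free RNA). Of the 25 genes the rule named, 1 is not reported here. Other genes are members of the 24 lists or markers. Members and lists were chosen with earlier results of these data known. Gene positions and promoters are from the GENCODE and RefSeq annotation of GRCm38. The count model across genes that replicates would allow was not run, since there is 1 library per group.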

Additional observations from a re-analysis of the deposited data

Results flagged for a closer look

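Chil3, a chitinase-like protein abundant in alveolar macrophages, went opposite ways in female and male gated cells. Female cells held 968 UMIs in oil and 46 in tamoxifen (log2 ratio -3.28), and male cells held 20 and 16 (1.22, 0.17 to 2.24). The difference between the sexes was not tested. Over all members Chil3 gave 997 and 79 UMIs. Alveolar macrophages held it at 8677 and 7461 CPM, far above the 189 and 34.7 CPM of the gated cells. The alveolar macrophage list, which holds Chil3, summed to 2492 CPM in cluster 5 against 91.2 in the other members. Cluster 5 had 9 female and 3 male oil cells, and 17 female and 2 male tamoxifen cells. Neither the part of cluster 5 nor that of free RNA in the Chil3 ratios was tested.

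The cDC1 share of kept cells, measured for comparison with cDC2, was also opposite in the sexes, with a log2 ratio of -1.38 in female cells (-1.70 to -1.06) and 0.33 in male cells (0.01 to 0.65). This difference was not tested either. The cDC2 share was lower in both.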

How the results depend on the processing

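The lower cDC2 share kept its direction under every alternative run. Its log2 ratio was -1.44 when all barcodes past the alveolar macrophage limit of Krt79 and Plet1 were taken out of the denominator. It was -1.996 without clusters 4 and 5 and -1.26 with no gate gene required, these last 2 chosen after the data were seen. The 60 genes past 2-fold higher became 26 with the gate applied at 3000 UMIs per cell, 30 with at least 100 UMIs and 224 with at least 20 UMIs and no CPM minimum. The 42 lower ones became 80 in female cells, 91 in male cells and 344 with at least 20 UMIs. The balance of higher and lower turned to 40 and 55 without clusters 4 and 5 and to 46 and 61 without the top cells, while no gate gene gave 216 and 51. Named genes reversed in 6 cases: with the gate at 3000 UMIs, Retnla was at -1.23, Igfbp7 at 0.82 and Mfap4 at 0.15; Dcn was at -0.78 in male cells and -0.37 without the top cells; Retnla without the top cells was at -0.0104. Of the other values for named genes, 256 stayed within the interval of the reported ratio and 57 left it in the same direction. The cause of these shifts was not tested. No paired analysis was possible because each group has 1 library. Ratios over all members are given for genes with at least 60 UMIs, but those within a sex, cluster or alternative can rest on far fewer, such as Dcn on 5 and 1 UMIs in male cells.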

Other observations

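Metabolic and degradative genes, not described above, were close to level with some exceptions. In the glycolysis and hypoxia list 2 of 23 measured members were past 1.5-fold higher and 1 lower, with a median log2 ratio of 0.22. Pfkfb3, which sets the level of an activator of glycolysis, was at 26.0 and 44.8 CPM (0.79, 0.40 to 1.17) and the lactate exporter Slc16a3 at 11 and 17.1 CPM (0.64, 0.02 to 1.25). P4ha1, a collagen prolyl hydroxylase induced by low oxygen, was at 126 and 67.2 CPM (-0.91, -1.17 to -0.65), and Hk2, hexokinase, at 152 and 108 CPM (-0.50, -0.71 to -0.29). In the lysosome and uptake list 2 of 32 were higher and 1 lower, with Cd36, a scavenger receptor, at 20.1 and 32.1 CPM (0.67, 0.22 to 1.12) and Lgmn above. The lowest ratios were those of Tfeb, a lysosomal transcription factor (48 and 12 UMIs; -0.79, -1.84 to 0.15), and Mitf (49 and 15 UMIs; -0.50).

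Lipid genes were split too, with 1 of 20 higher and 2 lower: Trem2, a lipid receptor of macrophages, gave 41 and 41 UMIs (1.21, 0.55 to 1.87), 24 and 32 of them in cluster 5, and its log2 ratio was 0.52 without clusters 4 and 5. Abca1, a cholesterol exporter, gave 59 and 15 UMIs (-0.76). Cycling genes were past 1.5-fold in 0 of 22 members, with a median of 0.18. Without clusters 4 and 5, 6 of 22 were higher and none lower, with a median of 0.35, while the median was -0.03 with high doublet scores removed and -0.07 with the gate at 3000 UMIs. Genes of the Hedgehog pathway were scarce in gated cells, with 19 and 12 UMIs of the receptor Ptch1, 10 and 2 of Smo and 1 and 1 of Gli1.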
